A study of Mus musculus with 21 samples.

Results

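Control libraries of 2 cultures of NUP98-NSD1 mouse leukaemia cells were set side by side gene by gene. The first culture had received DMSO, the solvent control of a PRC2 inhibitor experiment (3 libraries, labelled 3 µM for 4 days). The second carried shEV, the empty pLKO.1-puro lentivirus of a Kdm5b knockdown experiment, and had been selected in puromycin (3 libraries). These 6 of the 21 libraries of the series were chosen by their labels, not by any measured value. Both cultures are established murine acute myeloid leukaemia (AML) cells transformed by flag-tagged NUP98-NSD1, a chimera that joins the nucleoporin NUP98 to NSD1, an enzyme that methylates histone H3, and the labels give 1 medium for both, OptiMEM with serum and mouse stem cell factor. Neither control had an inhibitor or an shRNA. Whether both came from 1 line or clone, and whether replicates were separate cultures, is not stated.

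The experiment, and with it any batch of culture, RNA or library, is confounded with the vector and puromycin: every DMSO library is from the inhibitor experiment and every shEV library from the knockdown. Vector and batch cannot be told apart. The authors normalised their tables separately, so genes were compared by their rank within each library (rank 1 has the most reads), with no p-value across the tables. Every difference is a description of these 6 libraries.

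Myeloid maturation runs from progenitors that carry the stem cell factor receptor Kit, through promyelocytes that fill azurophil granules with enzymes such as myeloperoxidase, to neutrophils on one branch and to monocytes and macrophages on the other. NUP98 fusions keep HOXA genes and Meis1 active and hold cells at the progenitor end, while KDM5B removes methyl groups from lysine 4 of histone H3. Markers of each stage therefore serve to describe how mature a culture is. Kit, Mpo, Elane and Spi1 were present in all 6 libraries, so both cultures carried the myeloid progenitor RNAs that the labelled cell type should have. By rank, among the genes that could be compared, more genes of monocytes, macrophages and late neutrophils were placed higher in the DMSO culture. Kit, Mpo and genes of ribosome synthesis were placed higher in the shEV culture. Mpo did not stand for its list: the azurophil granule genes split between the cultures, with a median difference towards DMSO. Of the late neutrophil and macrophage genes listed, 13 of 31 and 12 of 35 were not in both tables.

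Among 13749 gene symbols present in both tables, 12699 reached a mean of 1 CPM (counts scaled to 1 M per library) in at least 1 control group and were compared. A gene was called when its ranks in the 3 DMSO and the 3 shEV libraries did not overlap and its rank-matched level differed by at least 1 log2 unit. That level gives each rank the mean log2(CPM + 1) the rank holds over the 6 libraries. Of the genes compared, 1146 were called higher with shEV (9.02%) and 1415 higher with DMSO (11.1%), 20.2% in all, and the median difference of all genes, shEV minus DMSO, was 0.09. With CPM centred on each library's median the same counts were 870 and 1668, so shEV took 34.3% of the calls in place of 44.7%. On the plain CPM scale they were 1344 and 1355 and the median difference was 0.16. Ranks without overlap alone were common (85.0% of genes, with 47.3% higher with shEV and 37.7% higher with DMSO), so only called genes are described as higher. The shares of 9.02% and 11.1% are the background for each list count made with this rule.

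Libraries of 1 culture were close and the cultures were far apart. The Pearson correlation of log2(CPM + 1) was 0.9956 to 0.9983 within a culture and 0.925 to 0.926 between cultures, across genes, which are not independent. The typical gene sat 86.5 to 144 places apart between replicates and 834.5 to 849.5 places apart between cultures (medians). Replicates differed by a chi-square of 2.2 to 3.45 per degree of freedom, more than counting error, so none was a copy. Depth was 13.6 to 15.3 M counts with DMSO and 31.3 to 34.8 M with shEV. With every library thinned to the depth of the shallowest, 1161 genes were higher with shEV and 1438 with DMSO.

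**Figure D1:**
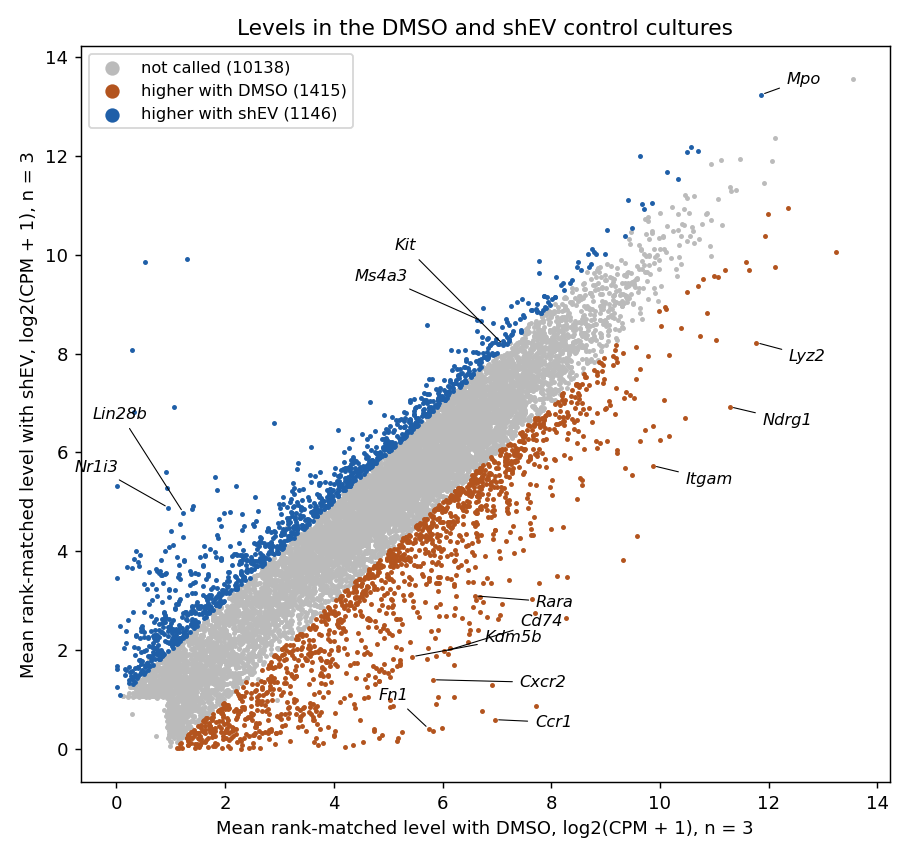
Mean rank-matched level, log2(CPM + 1), of each gene compared in the 3 DMSO libraries (horizontal) and the 3 shEV libraries (vertical); blue points are the 1146 genes called higher with shEV, orange the 1415 called higher with DMSO. Itgam, Lyz2, Ccr1 and Kdm5b lie below the grey band, Mpo, Ms4a3, Kit and Lin28b above it.

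Stem cell genes were the first step of the ladder. Kit stood at 136, 130 and 134 CPM in the DMSO libraries and at 293, 305 and 291 CPM in the shEV libraries. Its ranks were 1606 to 1672 with DMSO and 578 to 634 with shEV, without overlap, and its level was 1.07 ± 0.03 log2 units (SE, n = 3 and 3) higher with shEV. Of the 30 stem cell and self-renewal genes, 20 were in both tables and 19 were compared. Of these, 5 were called higher with shEV (9.02% of all genes) and none higher with DMSO (11.1%). With a minimum of 10 percentile points of rank 4 were higher with shEV and 1 with DMSO, where 14.8% and 14.6% of all genes were. The median difference was 0.44 (0.09 for all genes).

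The other 4 called stem cell genes were Lin28b, Tal1, Bcat1 and Bmi1. Lin28b, a fetal RNA-binding protein that blocks let-7 microRNAs, had 1.77, 1.40 and 1.19 CPM with DMSO and 27.5, 27.9 and 28.1 CPM with shEV. Its difference of 3.55 ± 0.10 log2 units was the highest in the list. Bcat1, a branched-chain aminotransferase, was 3.64-fold higher in mean CPM (50.2 ± 1.7 against 183 ± 3.3, SD, n = 3), and Bmi1, a subunit of the repressor complex PRC1, 3.23-fold. Tal1, a stem cell and erythroid transcription factor, had 0 to 4 counts in each DMSO library and 2.65 to 3.33 CPM with shEV.

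Other progenitor genes lay near the bulk of genes. Meis1, the HOXA cofactor, had ranks of 5757 to 6114 with DMSO and 5704 to 5838 with shEV, which overlap. Myb and Hoxa9 did not overlap but missed 1 log2 unit, with differences of 0.60 ± 0.05 and 0.65 ± 0.03. Hoxa9 ran from 119 to 129 CPM with DMSO and from 206 to 209 CPM with shEV. Of 12 HOX genes compared, Hoxa11 was called higher with shEV (0.722 ± 0.17 against 11.6 ± 0.19 CPM) and Hoxa3 higher with DMSO (12.8 ± 0.95 against 5.74 ± 0.34 CPM), close to the background shares. Exons of another gene on the opposite strand cover 35.0% of the exonic bases of Hoxa11 and 25.4% of those of Hoxa3, so their reads are uncertain. Cd34, a progenitor surface protein, is listed in the knockdown table only, with 26 to 35 counts in a shEV library.

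**Figure D2:**
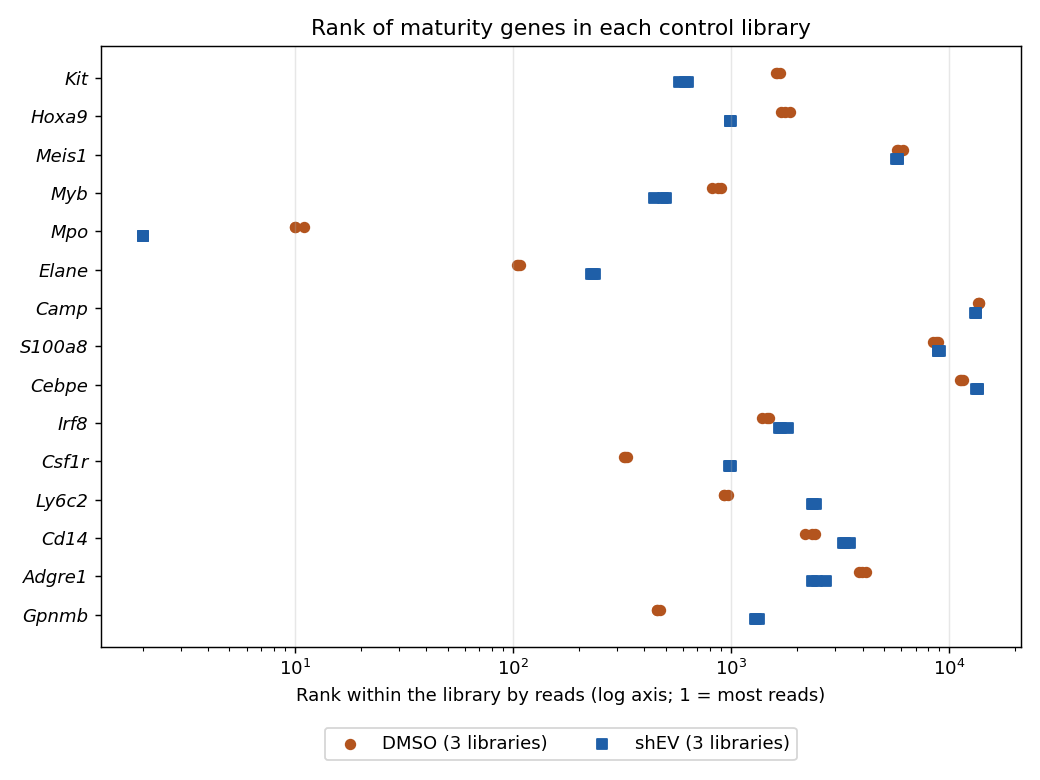
Rank of each maturity gene within each library (horizontal, log axis, 1 is the gene with most reads) for 3 DMSO libraries (circles) and 3 shEV libraries (squares), ordered from progenitor genes at the top to macrophage genes at the bottom. Kit and Mpo sit further left with shEV, Csf1r, Ly6c2 and Gpnmb further left with DMSO, and Meis1 and S100a8 overlap.

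Azurophil granule genes split between the cultures. Mpo, myeloperoxidase, ranked 10 to 11 with DMSO and 2 in each shEV library, at 4386, 4649 and 4550 CPM against 9780, 9887 and 9631 CPM. All shEV values lay above all DMSO values, and the ratio of means was 2.16. From ranks of 10 to 11 no rise of 10 percentile points of rank was possible. Ms4a3, a membrane protein of granulocyte and monocyte progenitors, was also higher with shEV (99.1 ± 2.8 against 409 ± 6.3 CPM). Elastase (Elane) pointed the other way without reaching the minimum, with 927 to 959 CPM in DMSO and 524 to 548 CPM in shEV libraries.

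Of 14 azurophil genes compared, 2 were called higher with shEV (14.3%, against 9.02% of all genes) and 4 higher with DMSO (28.6%, against 11.1%). The median difference was -0.35. The 4 were Fcnb (ficolin B), Mgst1 (a microsomal glutathione transferase), Srgn (the granule proteoglycan serglycin) and Clec12a (an inhibitory lectin receptor). Fcnb had 172 to 191 counts in a DMSO library and 2 to 5 in a shEV library, and Mgst1 155 to 160 against 28.2 to 28.8 CPM. The enzymes Ctsg and Prtn3, in the same granules, differed by 0.08 and -0.28. Summed over the 15 members in both tables, CPM was 9200.5 to 9547 with DMSO and 13379 to 13706 with shEV, a sum in which Mpo is the main term.

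Of 31 late neutrophil genes, 18 were in both tables and 16 were compared. Of these, 7 were placed higher with DMSO (11.1% of all genes) and 1 higher with shEV (9.02%), with a median difference of -0.75. Cxcr2, the chemokine receptor that brings neutrophils out of the marrow, had 54.1, 53.8 and 50.3 CPM with DMSO and 1.53, 1.33 and 1.70 CPM with shEV. All DMSO values lay far above all shEV values, a 34.7-fold ratio of means and -4.42 ± 0.06 log2 units. Cd177, a neutrophil surface glycoprotein, Trem1, an activating receptor, and Mmp8, neutrophil collagenase, were 16.4-fold, 11.7-fold and 9.09-fold higher with DMSO. Fpr1, the formyl peptide receptor, was the member higher with shEV (46.9 ± 1.3 against 121 ± 6.0 CPM).

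Camp, S100a8 and Cebpe, also tied to neutrophil maturation, were low in both cultures, unlike Mmp8, which had a mean of 128 CPM with DMSO. Camp (cathelicidin) had at most 0.324 CPM in any of the 6 libraries and was not compared, and Ltf (lactoferrin) was not analysed here. S100a8, a subunit of calprotectin, had 10.2 to 12.8 CPM with DMSO and 9.16 to 10.6 CPM with shEV, with overlapping ranks. Cebpe, the factor that drives secondary granule genes, was higher with DMSO but low in both, at 1.70 to 2.22 against 0.173 to 0.289 CPM.

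Under the minimum of 1 log2 unit, most monocyte genes compared were placed higher with DMSO. Of 27 compared, 15 were higher with DMSO (11.1% of all genes) and 1 higher with shEV (9.02%), with a median difference of -1.23. With a minimum of 10 percentile points of rank 10 were higher with DMSO and 1 with shEV, where 14.6% and 14.8% of all genes were. The median member ranked 968.5 to 1053 with DMSO and 3265 to 3519 with shEV. Summed over the 28 members in both tables, CPM was 22013 to 22125 with DMSO and 5769 to 5842 with shEV. Itgam, the integrin CD11b of mature myeloid cells, stood at 1007, 995 and 997 CPM with DMSO and 58.4, 50.1 and 56.3 CPM with shEV, with ranks of 93 to 97 against 4149 to 4684. Ccr2, the receptor that calls monocytes out of marrow, had 284 to 301 against 21.8 to 24.2 CPM. S100a4, a calcium-binding protein, and Ctss, the endosomal protease cathepsin S, were 24.7-fold and 20.3-fold higher with DMSO. Lyz2, the lysozyme of granulocytes and monocytes, was named after its values were seen: it had 4036 to 4129 CPM with DMSO and 292 to 309 CPM with shEV.

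Ly6c2, which marks classical monocytes, was called higher with DMSO (206 ± 3.1 against 104 ± 2.2 CPM), while Cd14, the endotoxin co-receptor, missed the minimum at -0.51 ± 0.05. Aif1, an actin-binding protein of monocytes and microglia, was the member higher with shEV (3.42 ± 0.23 against 28.3 ± 2.3 CPM). Another gene's exons on the same strand cover 68.7% of the exonic bases of Itgam and 51.7% of those of S100a4, and Ly6c1 with Ly6c2 and Lyz1 with Lyz2 are close paralogs, so the split of their reads is uncertain.

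PU.1, the master factor of myeloid genes, binds purine-rich sites. Its motif GAGGAAGT, on either strand, was found in the promoter window of 6 of 23 monocyte genes that have one in the RefSeq table (26.1%) and of 4.14% of the 8671 genes compared that have one. Windows run from 250 bases before to 50 after the start of a gene. The member with a match and the largest difference was S100a4, whose window is shown with the match, read on the minus strand, in capitals (GRCm38.p6, chr3:90603520-90603819, plus strand). A match is a description and not a binding site.
S100a4: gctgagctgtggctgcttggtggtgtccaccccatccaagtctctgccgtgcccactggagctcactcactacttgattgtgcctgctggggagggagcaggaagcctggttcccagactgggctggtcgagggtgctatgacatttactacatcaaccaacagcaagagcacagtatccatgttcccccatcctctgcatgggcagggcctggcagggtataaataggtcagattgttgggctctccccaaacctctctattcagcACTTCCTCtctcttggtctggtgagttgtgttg

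Macrophage genes followed the monocyte genes. Of 35 listed, 23 were in both tables and 21 were compared. Of these, 10 were higher with DMSO (11.1% of all genes) and 1, Apoe (2.55 ± 0.68 against 7.52 ± 0.21 CPM), higher with shEV (9.02%). The median difference was -0.97. The median member ranked 4176.5 to 4480 with DMSO and 8828.5 to 8924.5 with shEV. Fn1, fibronectin, had 47.6 to 52.3 CPM with DMSO and 7 to 11 counts in each shEV library, or 0.206 to 0.353 CPM. Lgals3, the lectin galectin-3, had 261 to 269 against 10.1 to 10.7 CPM. Spp1 (osteopontin) had 102 ± 3.1 against 9.27 ± 1.2 CPM, and Hmox1 (haem oxygenase) was 9.25-fold higher with DMSO. Gpnmb, a lysosomal glycoprotein of macrophages, had 342, 348 and 348 CPM with DMSO and 168, 170 and 165 CPM with shEV.

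Not every macrophage marker followed. Adgre1, the surface antigen F4/80, had 99.4 ± 6.3 CPM with shEV and 55.1 ± 2.2 CPM with DMSO, without overlap but below the minimum (0.70 ± 0.07). C1qa, a complement chain of macrophages, was not analysed here. Cd68 differed by -0.58 ± 0.02 and the mannose receptor Mrc1, whose ranks overlapped, by 0.14 ± 0.18. The 6 subunits of the phagocyte oxidase, the superoxide-making enzyme of neutrophils and macrophages, had no call in either direction and a median difference of -0.08.

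**Figure D3:**
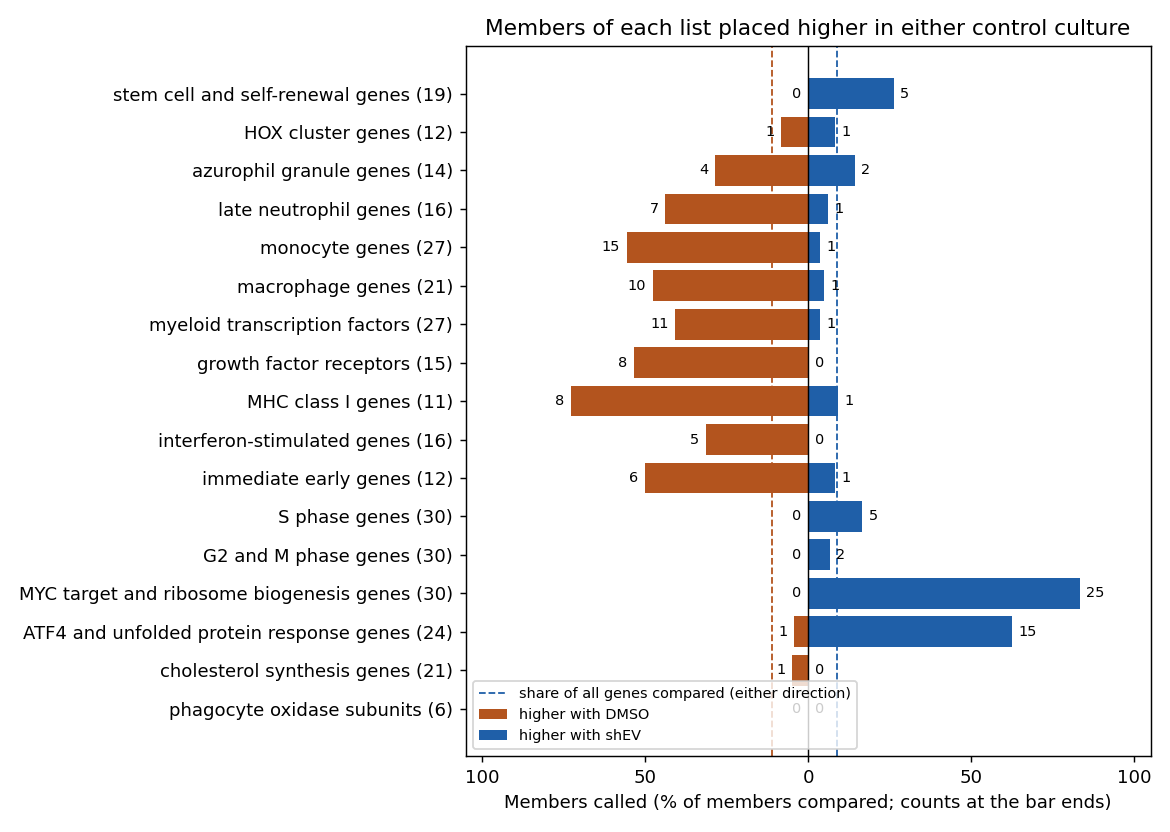
Share of the members compared (number in brackets) that were called higher with DMSO (orange, to the left) or higher with shEV (blue, to the right), with the counts at the bar ends; dashed lines mark the 11.1% and 9.02% of all genes compared. Maturity, receptor and presentation lists extend to the left, and the MYC and ATF4 lists reach 25 of 30 and 15 of 24 members to the right.

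Myeloid transcription factors were uneven. Spi1, which encodes PU.1, had 260 ± 8.3 CPM with DMSO and 251 ± 5.8 CPM with shEV, and Cebpa and Irf8, the granulocyte and monocyte determinants, differed by -0.35 and -0.21. Of 27 factors compared, 11 were higher with DMSO (11.1% of all genes) and 1 with shEV (9.02%), with a median difference of -0.59. Rara, the retinoic acid receptor alpha, had 86.9, 93.0 and 92.6 CPM with DMSO and 7.67, 7.61 and 6.96 CPM with shEV. Klf4, a driver of monocyte fate, and Klf2, which keeps myeloid cells quiescent, were 2.60 ± 0.04 and 2.59 ± 0.02 log2 units higher with DMSO. Egr1, an immediate early gene of the monocyte branch, was the member higher with shEV (3.45 ± 0.42 against 16.8 ± 0.61 CPM).

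Receptors for growth factors and cytokines were placed higher with DMSO in 8 of 15 cases (11.1% of all genes) and with shEV in none (9.02%). Their median difference was -1.12. Kit, also such a receptor but counted in the stem cell list, was higher with shEV. Csf1r, the receptor for the monocyte growth factor M-CSF, had 442, 447 and 434 CPM with DMSO and 209, 207 and 209 CPM with shEV. Il10ra, a subunit of the interleukin-10 receptor, had 64.5 to 66.1 against 2.68 to 3.56 CPM, and Il1r1, the interleukin-1 receptor, 10.6 ± 0.96 against 0.847 ± 0.17 CPM. Csf2rb and Csf2rb2, paralogous common beta chains whose reads may be split, were 1.80 and 2.14 log2 units higher with DMSO. Csf3r and Csf2ra, the receptors for G-CSF and GM-CSF, differed by -0.04 and 0.02, so the lower placing did not extend to these.

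Antigen presentation genes also ranked higher with DMSO. Of 11 MHC class I genes 8 were higher with DMSO (11.1% of all genes) and 1, the immunoproteasome subunit Psmb10, higher with shEV (9.02%). The median difference was -1.28. With a minimum of 10 percentile points of rank 5 were higher with DMSO, where 14.6% of all genes were. Psmb8, another immunoproteasome subunit, had 59.8 to 65.2 against 9.17 to 10.5 CPM, and B2m, the invariant light chain, 2544 ± 23 against 781 ± 7.7 CPM. Cd74, the class II invariant chain, had 59.0 to 62.4 against 2.39 to 3.19 CPM. Of only 4 class II genes compared 3 were higher with DMSO (11.1% of all genes). Of 16 interferon-stimulated genes 5 were higher with DMSO (11.1% of all genes) and none with shEV (9.02%), with a median of -0.77. They were led by the RNA sensor Ddx58 (24.8 ± 1.1 against 4.90 ± 0.43 CPM).

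Growth programs ran the other way. Of 30 MYC target and ribosome biogenesis genes, 25 were higher with shEV (9.02% of all genes) and none with DMSO, with a median difference of 1.25. Nop56, a core protein of small nucleolar RNPs, had 116, 114 and 120 CPM with DMSO and 394, 397 and 396 CPM with shEV. Wdr43, a factor of small ribosomal subunit assembly, ranked 2276 to 2526 with DMSO and 455 to 473 with shEV. Gnl3 (nucleostemin) and Hspd1 (the mitochondrial chaperonin) were 3.11-fold and 2.53-fold higher in mean CPM. Myc itself, at 195 ± 7.2 and 280 ± 4.7 CPM, missed the minimum with a difference of 0.44 ± 0.03.

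MYC binds the E-box CACGTG, which reads the same on both strands. It was present in 7 of 24 promoter windows of this list (29.2%) and in 12.1% of those of all genes compared. Of the 21 called members with a window 5 held it. The list was written to hold MYC targets, so this share describes the list and not the cultures. The E-box of Wdr43, the listed gene with a match and the largest difference, is in capitals and begins at position 268 of 300 (GRCm38.p6, chr17:71615965-71616264, plus strand).
Wdr43: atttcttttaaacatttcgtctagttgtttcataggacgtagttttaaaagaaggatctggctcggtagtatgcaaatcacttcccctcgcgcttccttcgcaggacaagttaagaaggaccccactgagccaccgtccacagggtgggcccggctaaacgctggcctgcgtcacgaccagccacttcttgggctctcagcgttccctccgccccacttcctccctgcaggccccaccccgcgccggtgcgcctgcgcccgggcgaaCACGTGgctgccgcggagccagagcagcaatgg

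Genes of the ATF4 and unfolded protein response answer amino acid shortage and misfolded protein. They were higher with shEV in 15 of 24 cases (9.02% of all genes) and higher with DMSO in 1 (11.1%). Their median difference was 1.24. With a minimum of 10 percentile points of rank 10 were higher with shEV and 1 with DMSO, where 14.8% and 14.6% of all genes were. Asns, asparagine synthetase, had 96.1, 93.6 and 91.1 CPM with DMSO and 407, 421 and 418 CPM with shEV. Chac1, which breaks down glutathione, and Slc7a11, the cystine transporter, were 2.32 ± 0.07 and 1.99 ± 0.07 log2 units higher with shEV. The chaperone co-factor Dnajb9, a target of the XBP1 branch, was the member higher with DMSO (52.6 ± 1.3 against 15.8 ± 0.58 CPM).

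The element TGATGNAA is part of the site that ATF4 shares with C/EBP factors. It was found on either strand in 5 of 23 promoter windows of the list (21.7%) and in 2.84% of those of all genes compared. Because the list was written to hold ATF4 response genes, this share describes the list and not the cultures. Chac1 had the largest difference among the members with a match, and its window carries the element in capitals, read on the minus strand (GRCm38.p6, chr2:119350992-119351291, plus strand).
Chac1: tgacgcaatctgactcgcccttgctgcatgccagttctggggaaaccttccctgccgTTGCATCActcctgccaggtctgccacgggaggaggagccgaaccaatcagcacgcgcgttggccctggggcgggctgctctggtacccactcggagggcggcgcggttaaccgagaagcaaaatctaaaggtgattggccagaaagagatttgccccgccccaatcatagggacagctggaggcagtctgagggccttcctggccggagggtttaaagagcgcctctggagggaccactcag

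Most cell cycle genes missed the minimum. Of 30 S phase genes 5 were higher with shEV (9.02% of all genes) and none with DMSO, with a median difference of 0.84. With a minimum of 10 percentile points of rank, 10 and 1 were, against 14.8% and 14.6% of all genes. Among the 5 were Mcm5 and Mcm7, subunits of the replicative helicase, Tyms, thymidylate synthase, and Ccne1, cyclin E1. Mcm5 had 193 ± 2.1 against 468 ± 4.7 CPM. Of 30 G2 and M phase genes 2, Cdc20 and Tacc3, were higher with shEV (median 0.56), a share of 6.67% that lies below the 9.02% of all genes. Brakes of the cycle lay on the other side: of 8 CDK inhibitor and RB family genes 4 were higher with DMSO (11.1% of all genes) and none with shEV (9.02%). Rb1, the retinoblastoma gene, had 115 ± 1.6 CPM with DMSO and 28.4 ± 0.31 CPM with shEV. Cdkn1a and Cdkn1b, the genes of p21 and p27, differed by -1.16 ± 0.06 and -1.40 ± 0.04.

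Of 17 p53 targets 4 were higher with DMSO, led by the death receptor Fas (117 ± 2.3 against 18.9 ± 1.0 CPM), and 3 with shEV, namely Bax, Aen and Zmat3 (median -0.18). These shares were 23.5% and 17.6%, against 11.1% and 9.02% of all genes. Of 21 cholesterol synthesis genes 1, Sc5d, was higher with DMSO (4.76%, below the 11.1% of all genes) and none with shEV (9.02%). Their median difference was -0.02 against 0.09 for all genes.

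Kdm5b, the target of the knockdown experiment, was itself placed apart in the controls. It lies on chromosome 1 at 134560171 to 134635285 (plus strand, GRCm38; ENSMUSG00000042207.17 in GENCODE M21). Its values were 41.4, 39.4 and 39.8 CPM with DMSO and 2.09, 3.23 and 2.28 CPM with shEV, or ranks of 4972 to 5152 against 10550 to 11062. The groups did not overlap, mean CPM was 15.9-fold higher with DMSO, and the difference was -3.58 ± 0.13 log2 units. Cells with the Kdm5b shRNA had 0.982 ± 0.18 CPM, and those given UNC1999 or JQEZ5 had 56.3 ± 1.1 and 42.6 ± 0.53 CPM. The Kdm5b values of the 2 controls were therefore further apart than those of either control and its own treated cells.

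The other demethylases of histone H3 lysine 4 were not called. Kdm5a differed by -0.65 ± 0.01, Kdm5c by -0.22 ± 0.03 and Kdm1a, which encodes LSD1, by -0.07 ± 0.03. Among 11 PRC2 subunit genes Ezh1, the catalytic subunit of resting cells, was higher with DMSO (60.4 ± 2.0 against 32.5 ± 0.97 CPM) and Phf19, an accessory subunit, higher with shEV (14.4 ± 0.75 against 35.6 ± 1.5 CPM). Each is 9.09% of the list, near the 11.1% and 9.02% of all genes. Ezh2, the catalytic subunit of dividing cells, had 112 to 120 CPM with DMSO and 187 to 192 CPM with shEV, a difference of 0.60 ± 0.03 that missed the minimum.

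**Figure D4:**
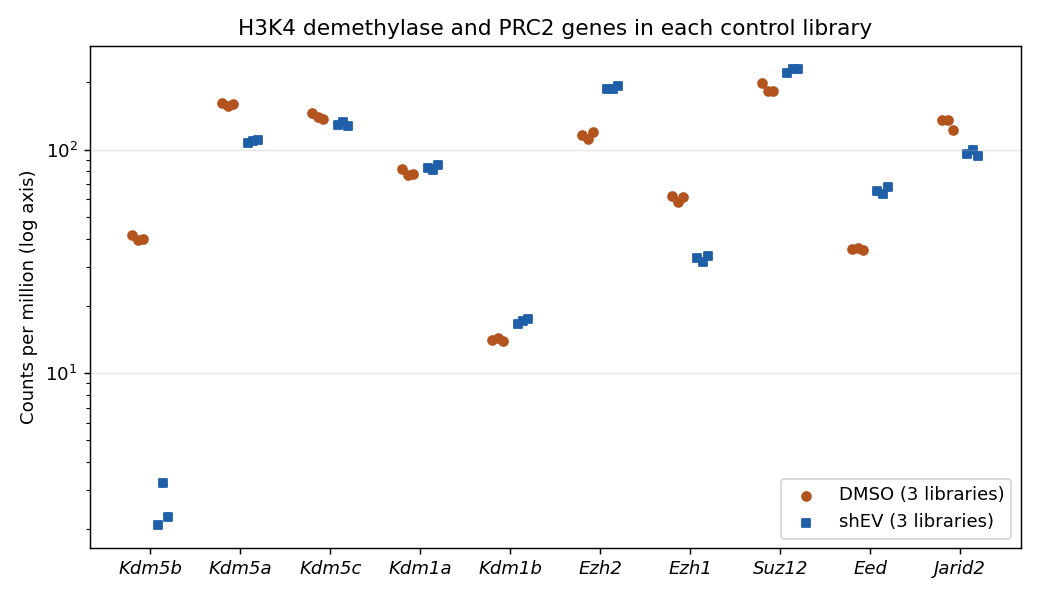
CPM (log axis) of histone H3 lysine 4 demethylase genes and PRC2 genes in each of 3 DMSO libraries (circles) and 3 shEV libraries (squares). Kdm5b is the only gene of the 10 shown with a gap of more than 10-fold, from 39.4 to 41.4 CPM down to 2.09 to 3.23 CPM.

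The 3 predicted genes Gm17494, Gm26619 and Gm10143, named after their values were seen, had differences of 9.32, 8.61 and 6.51 log2 units towards shEV, with another gene's opposite-strand exons over 50.4% and 57.3% of the exonic bases of the last 2. Predicted genes left out, the largest differences were on the DMSO side. Ccr1, a chemokine receptor of monocytes and neutrophils, had 1559 to 1941 counts in a DMSO library and 10 to 19 in a shEV library (-6.38 ± 0.09 log2 units). Also among the 10 furthest towards DMSO were Lsp1, an actin-binding protein of leukocytes, Tmem119, a marker of microglia, the scaffold protein Ahnak, the interleukin-13 receptor chain Il13ra1, the ectoenzyme Bst1, Fn1, the matrix protein thrombospondin 1 (Thbs1) and the proteoglycan Sdc3, the last at -5.16 ± 0.12. Bst1 had 654 ± 5.1 CPM with DMSO and 13.4 ± 1.1 CPM with shEV. In all, 152 genes differed by at least 3 log2 units towards DMSO and 31 towards shEV.

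Leaving out predicted genes, the 10 furthest towards shEV were Nr1i3, Fam57a, Phtf1os, Lin28b, Masp2, Tomt, Greb1, Adh7, Tlcd1 and Asb2, with differences of 3.12 to 3.93. Nr1i3 encodes the xenobiotic receptor CAR, and Adh7 is an alcohol dehydrogenase of retinol metabolism. Exons of an opposite-strand gene cover 43.5% to 74.9% of the exonic bases of Nr1i3, Fam57a, Phtf1os, Masp2 and Tomt, and whether counting used strand is not stated, so these 5 values are uncertain. Over all genes with exon models, predicted genes included, at least 50% of the exonic bases were so covered in 6.1% of those called higher with shEV, 2.04% of those higher with DMSO and 1.53% of those not called. Of the 67 covered genes higher with shEV, 54 were predicted or non-coding by symbol. Among the other genes the shares were 1.59%, 1.37% and 0.92%. The labels name 2 library kits without saying which library had which, and the part of strand or kit in these results was not tested.

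Other measures moved with the cultures. Of 11 RNAs that lack a poly(A) tail or collect ribosomal reads, 6 were higher with DMSO (11.1% of all genes) and none with shEV (9.02%). Summed over the 17 members in both tables, 6 of them below the filter, CPM was 2950 to 3384 with DMSO and 420 to 453 with shEV. Lars2 had 2132 to 2550 against 306 to 327 CPM and the linker histone gene Hist1h1c 304 to 316 against 9.71 to 10.5 CPM. Of 12 immediate early genes, which respond to handling, 6 were higher with DMSO (11.1% of all genes) and 1, Egr1, with shEV (9.02%). The part of RNA selection or handling in the maturity lists was not tested. With ranks taken again without predicted, small RNA, histone, mitochondrial and ribosomal protein genes, the monocyte, macrophage, late neutrophil and stem cell counts were the same (15, 10 and 7 higher with DMSO, and 5 higher with shEV).

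Markers of other blood and stromal cells were few. Of 99 markers in 7 lists 24 were in both tables and 18 were compared. Of these, 7 were higher with DMSO (11.1% of all genes) and none with shEV (9.02%). Of the megakaryocyte markers, Itgb3, Vwf and Gp1ba were higher with DMSO (their list summed to 61.6 to 66.5 against 11.8 to 12.5 CPM), while the platelet integrin Itga2b was under 1 CPM on average in both groups. The erythroid list summed to 177 to 188 CPM with DMSO and 362 to 370 CPM with shEV, nearly all of it the transferrin receptor Tfrc, and Klf1 was under 1 CPM on average in both. The other 4 called were Siglecf, Cd22, Cd2 and Acta2, and the part of other cells in the result was not tested. In bulk RNA, fewer mature cells and less of each RNA per cell cannot be told apart.

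The treated cells of each experiment give the controls a context. Of the genes called higher with DMSO, 96.4% had no overlap between all 9 libraries of the inhibitor table and all 6 of the knockdown table, and of those called higher with shEV 94.0% had none, against 60.7% of all genes compared. The call already required the controls not to overlap, so high shares were built in. Of 102 called genes named by rule, 97 had no overlap over the 9 and 6 libraries, and Ly6c2, Hoxa3, Slc7a11, Gp1ba and Lars2 overlapped. Ly6c2 had 259 ± 7.1 CPM with shKdm5b, above the 206 ± 3.1 CPM of the DMSO controls, and Slc7a11 had 49.5 ± 0.82 CPM with UNC1999, close to the 48.2 ± 2.0 CPM of the shEV controls.

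Itgam had 1261 ± 19 and 1003 ± 17 CPM with UNC1999 and JQEZ5 and 77.9 ± 8.1 CPM with shKdm5b. Ms4a3 had 52.6 ± 0.74, 97.9 ± 0.90 and 523 ± 126 CPM in the same order. Ranked over all 15 libraries, the median level of the macrophage list was 5.72 ± 0.06 with DMSO, 7.67 ± 0.02 with UNC1999, 6.58 ± 0.07 with JQEZ5, 3.51 ± 0.04 with shEV and between 4.95 and 5.07 with shKdm5b. The mean level of the same 21 members put shKdm5b closer to shEV than to DMSO. It was 5.45 to 5.48 with DMSO, 4.08 to 4.12 with shEV and 4.25 to 4.38 with shKdm5b. The azurophil median was 7.45 ± 0.03 with DMSO, 7.19 ± 0.03 with shEV and 7.99 ± 0.02 with shKdm5b. By this median the libraries of the knockdown experiment lay on both sides of the DMSO controls. By the mean of the same 14 members all of them lay below. The means were 7.51 to 7.54 with DMSO, 7.03 to 7.06 with shEV and 7.17 to 7.32 with shKdm5b. The stem cell median was 4.65 ± 0.08 with DMSO, 4.88 ± 0.10 with shEV and 4.80 ± 0.07 with shKdm5b, whose lowest library (4.74) lay within the DMSO range. The mean of the same 19 members did not overlap with DMSO. It was 4.50 to 4.57 with DMSO, 5.06 to 5.12 with shEV and 5.07 to 5.09 with shKdm5b.

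**Figure D5:**
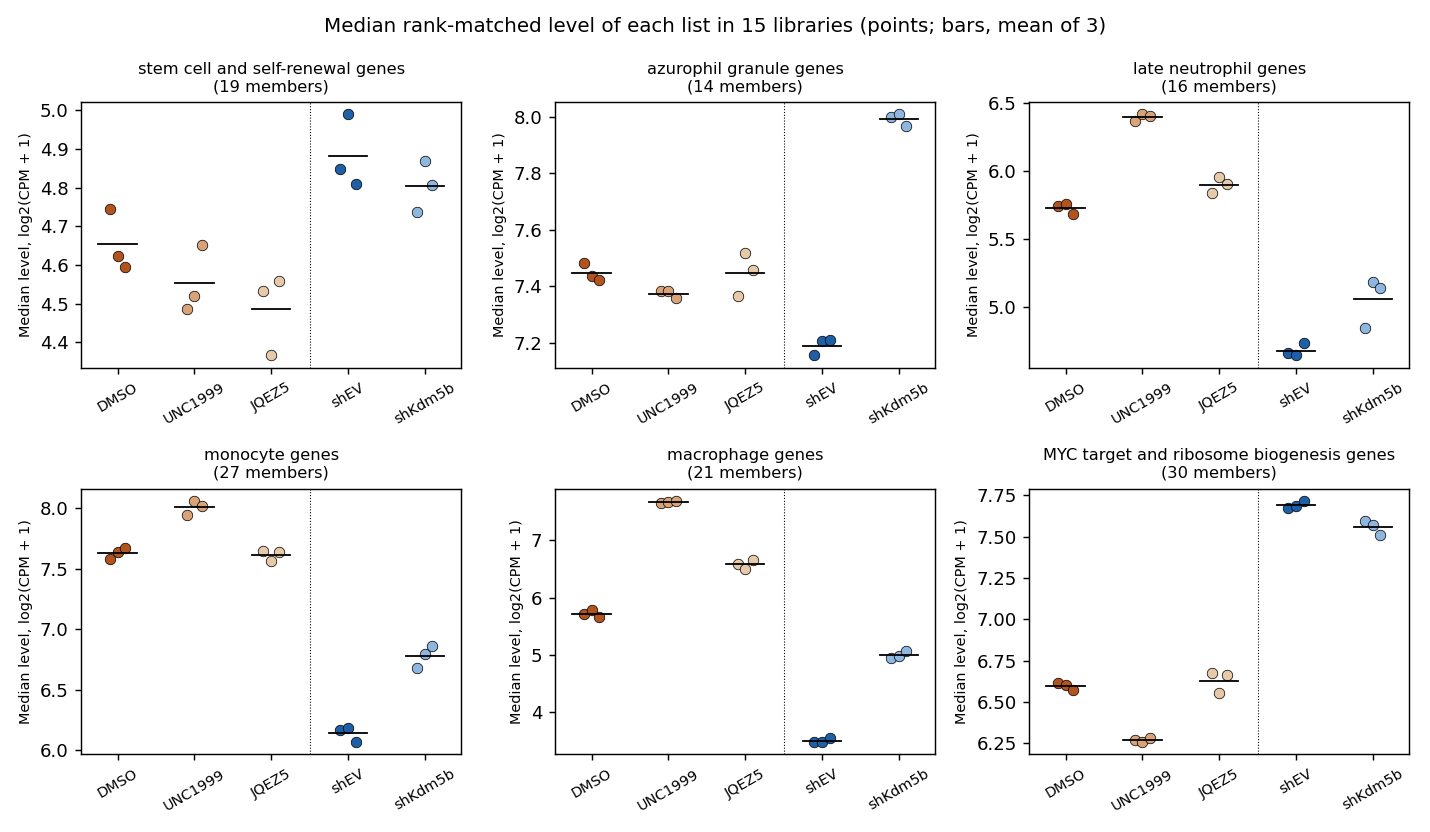
Median rank-matched level, log2(CPM + 1), of 6 gene lists in each of 15 libraries (points; bars are means of 3), with the inhibitor experiment left of the dotted line and the knockdown right of it; the vertical axes do not start at 0. The monocyte and macrophage medians of every DMSO library lie above those of all shEV and shKdm5b libraries, and the MYC and ribosome biogenesis medians below them.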

How the data were processed

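RNA sequencing values of the DMSO and shEV controls came from separate tables. Per the submitters' processing notes, STAR 2.4.2, Salmon 0.1.19 and DESeq2 1.38.2 were used with mm10 (GRCm38.p4), without roles. The authors deposited log2 values after a variance-stabilising transformation. It was inverted from the lowest value of each table; 100% of values were then whole multiples of 1 step per library (tolerance 0.05), which gave whole counts, possibly rounded estimates. Levels are counts scaled to 1 M over shared symbols (CPM), with a pseudocount of 1. Date-like or repeated symbols (18 and 22 rows) were dropped.

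Ranks, rank-matched levels and calls were computed with Python 3.11.15, numpy 2.4.6 and pandas 2.3.3, and tested on simulated data. No test crosses the tables. Members and the 31 lists were chosen with earlier results of these data known. Named are Kdm5b, Ezh2, 18 maturity genes, the 10 largest calls each way without predicted genes, and up to 4 called members per list. Uncalled members, single members called against their list and genes of the closing section were named after their values were seen. None of 5 sex-linked genes was in both tables. Some genes that the rule chose are summarised by count only or not reported here. Coordinates and exons are from GENCODE M21 and promoters from RefSeq (GRCm38.p6). Errors are SD or SE over 3 libraries, and floors and ratios of low counts cover counting error only. Alternatives concerned scaling, the minimum difference, filters, pseudocounts, gene classes, length and GC content, depth and each library.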

Additional observations from a re-analysis of the deposited data

How the results depend on the processing

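Main counts are 1146 and 1415 genes (higher with shEV, higher with DMSO), and for stem cell genes 5 and 0, azurophil 2 and 4, late neutrophil 1 and 7, monocyte 1 and 15, macrophage 1 and 10. A minimum of 0.5 log2 units gave 3596 and 2854 genes, stem cell 9 and 2, azurophil 4 and late neutrophil 2, monocyte 2 and macrophage 3 higher with shEV. A minimum of 2 units gave 108 and 421 genes, stem cell 1 higher with shEV, azurophil 0 and 2, late neutrophil 0 higher with shEV, monocyte 8 higher with DMSO, macrophage 0 and 6. No minimum gave 6008 and 4792 genes, stem cell 11 and 5, azurophil 5 and 9, late neutrophil 4 higher with shEV, monocyte 3 and 23, macrophage 3 and 17. A minimum of 10 percentile points gave 1877 genes higher with shEV (14.8% of all genes, with 14.6% higher with DMSO), stem cell 1 higher with DMSO, and late neutrophil 2 and macrophage 2 higher with shEV. The other lists were recounted under this minimum only. It moved by over 1.5 times S phase (10 and 1), MHC class I (5 higher with DMSO), interferon-stimulated (1 and 8), glycolysis (3 higher with DMSO) and cholesterol genes (3 higher with DMSO), transcription factors (3 higher with shEV), HOX (2 higher with DMSO), PRC2 (2 higher with shEV) and CDK inhibitor genes (1 higher with shEV). A pseudocount of 4 CPM gave 643 genes and 0 macrophage genes higher with shEV, median centring 1 azurophil gene, and both length and GC centring and the 9 against 6 libraries 0 late neutrophil genes. Larger or smaller minimums change these counts by construction; for the rest the cause was not tested. Leaving out each library gave 1129 to 1168 and 1410 to 1452 genes, with every count of the 5 maturity lists within 1.5 times. No called named gene changed sign over 19 settings, and no gene was called in opposite directions. Thinning was chosen after seeing the data. Genes under 1 CPM rest on few counts in the shallower DMSO libraries. No paired analysis was possible because the result comes from no test and replicate numbers of separate experiments mark nothing shared.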

Other observations

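Genes that the hypoxia-inducible factors (HIF) are known to induce were placed far apart in the cultures. The 4 lists of this section were written after the values had been seen, so their counts are descriptions. Of 24 HIF targets compared, 22 were higher with DMSO (11.1% of all genes) and none with shEV, with a median difference of -2.34. Ero1l, an oxidase of the endoplasmic reticulum, ranked 2 in each DMSO library and 75 to 83 in the shEV libraries, at 9439 to 9803 against 944 to 1022 CPM. Ndrg1, a stress-induced gene, had 2698, 2742 and 2714 CPM with DMSO and 133, 112 and 130 CPM with shEV. The glucose transporter Slc2a3 had 213 against 9.25 CPM, the mitophagy receptor Bnip3 996 against 95.7 CPM, and Pdk1, which turns pyruvate away from mitochondria, 363 against 46.5 CPM (means of 3). Higd1a and Pfkfb3 differed by -0.28 and 0.20.

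Of 17 glycolysis enzymes and transporters 7 were higher with DMSO (11.1% of all genes) and none with shEV (9.02%), with a median of -0.83. With a minimum of 10 percentile points of rank 3 of the 17 were, where 14.6% of all genes were, so the count depends on the minimum. The list was led by Gpi1, glucose phosphate isomerase, at 3296 against 859 CPM, while Ldha and Pkm differed by -0.24 and -0.15. The HIF core element TACGTG, searched on both strands, was in 4 of 18 promoter windows of the HIF list (22.2%) and in 4.81% of those of all genes compared. Because the list was written to hold HIF targets, this share describes the list and not the cultures. The window of P4ha1, a collagen prolyl hydroxylase and the listed gene with a match and the largest difference, follows with the match, read on the minus strand, in capitals (GRCm38.p6, chr10:59323046-59323345, plus strand).
P4ha1: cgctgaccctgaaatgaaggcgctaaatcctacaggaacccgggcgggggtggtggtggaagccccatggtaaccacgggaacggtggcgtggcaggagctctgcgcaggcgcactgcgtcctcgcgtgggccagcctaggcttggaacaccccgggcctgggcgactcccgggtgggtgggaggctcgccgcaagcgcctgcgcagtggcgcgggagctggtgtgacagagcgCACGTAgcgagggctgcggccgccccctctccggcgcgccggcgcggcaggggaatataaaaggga

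Of 20 complement, chemokine and inflammatory receptors, 14 were higher with DMSO (11.1% of all genes) and none with shEV (9.02%), with a median of -2.35. The complement receptor C5ar1 had 30.1 against 0.743 CPM and the low-affinity antibody receptor Fcgr3 153 against 15.1 CPM, while the inhibitory Fcgr2b differed by 0.12. Of 22 lysosomal genes 4 were higher with DMSO (18.2%, against 11.1% of all genes) and none with shEV (9.02%). Their median was -0.79, and ranks without overlap put 17 towards DMSO and 5 towards shEV.

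Another 411 symbols are listed in the inhibitor table only and 1852 in the knockdown table only, and 104 and 161 of them reached a mean of 1 CPM in the control of that table. The scavenger receptor Colec12 had 148 ± 3.9 CPM with DMSO, and the peptidase Dpp4 27.1 ± 1.0 CPM with shEV. Predicted and non-coding genes by symbol made up 306 of the calls towards shEV and 141 of those towards DMSO.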
